A study of Mus musculus with 2 samples.

Results

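The Zfp genes are the mouse genes that carry the symbol Zfp and a number, and most of them encode transcription factors built from tandem C2H2 zinc fingers. Protein-coding genes were taken by their symbol alone, Zfp followed only by digits, and Zfp36, an RNA-binding protein with another kind of finger, was left out. This gave 364 genes of 21853 protein-coding genes, with 21489 other genes for comparison. A Zfp gene was called clustered where another Zfp gene lay within 100 kb of its gene body, which held for 208 genes in 51 clusters, and single otherwise, which held for 156 genes. Single thus means only that no other gene with such a symbol was near, and finger genes of other names can be. With any gene of 3 or more fingers as the neighbour, 132 Zfp genes were single. A gene had an accessible promoter where a region of the authors' conservative peak list, reproducible between the replicates, lay within 1 kb of any of its annotated transcription start sites (TSS). A promoter called inaccessible below had no such region, which is to say that none was detected at this depth and threshold.

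A C2H2 finger is a short fold held by a zinc ion between pairs of cysteines and histidines, and a run of fingers reads a stretch of DNA. Many Zfp proteins also carry a KRAB domain, which binds the co-repressor TRIM28 and so recruits SETDB1, HP1 and DNA methylation to the bound DNA, often a transposable element. Their genes multiplied by tandem duplication, so that neighbours within a cluster are often close relatives in sequence, and fingers and whole genes differ widely between mammals.

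Open chromatin was mapped in G1E-ER4 cells by ATAC-seq, where a transposase cuts and tags accessible DNA. This is an established mouse erythroid line of C57BL/6J origin per the labels, which lacks Gata1 and carries a GATA1 protein fused to the estrogen receptor's ligand-binding domain. All cells were treated with 17beta-estradiol, which activates that fusion, at 10 nM for 24 hours, and the 2 libraries (biological replicates 1 and 2, from 50000 cells each) form 1 group. Untreated cells were not analysed here, so no value below is a response to estradiol, and the values are those of a cell line, not of primary red cell precursors. The read depth is unknown. The IDR (irreproducible discovery rate) lists held 14012 regions in replicate 1 and 15564 in replicate 2, and the conservative list held 20080. Of 14 erythroid marker genes 13 had an accessible promoter in the conservative list (9 and 11 in the replicates' own lists), and none of the 5 lymphoid, 5 myeloid and 4 liver markers did. Of 4 neuronal markers 1 did, Tubb3, a tubulin gene.

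Promoters of Zfp genes were accessible more often than those of other genes. In the conservative list 249 of 364 Zfp genes had an accessible promoter, or 68.4% (95% Wilson interval 63.5 to 73.0), against 8995 of 21489 other genes, or 41.9% (41.2 to 42.5). Over all protein-coding genes the share was 42.3%. The replicates' own IDR lists gave 63.2% of Zfp genes in replicate 1 and 64.6% in replicate 2 (63.9 ± 0.971%, mean ± SD, n = 2), against 38.4% and 39.5% of other genes (38.9 ± 0.786%). The difference of 26.5 percentage points in the conservative list was 24.8 points in replicate 1 and 25.1 points in replicate 2, so it exceeded the spread between the replicates many times over. That spread covers only how calls at the same genes repeat. Wilson intervals cover counting error only and treat genes as independent, which neighbours in a cluster are not. Both libraries are of the same cell type, so the share in another cell type was not measured.

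As a whole, clustered genes stood above single genes, and the larger clusters made the difference. Of the clustered genes 151 of 208 had an accessible promoter, or 72.6% (66.2 to 78.2), against 98 of 156 single genes, or 62.8% (55.0 to 70.0), and these intervals overlap. Replicate 1 gave 67.8% of clustered and 57.1% of single genes, and replicate 2 gave 67.8% and 60.3%. The gap was 10.7 points in replicate 1 and 7.53 points in replicate 2, of the same sign in both. It was larger than their SD of 2.27 points, which covers only how calls at the same genes repeat between libraries. With each cluster given 1 vote, the mean share over the 51 clusters was 66.1%, and the gap to single genes came to 3.24 points. Single genes alone still exceeded other genes, by 18.7 points in replicate 1 and 20.8 points in replicate 2.

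**Figure D1:**
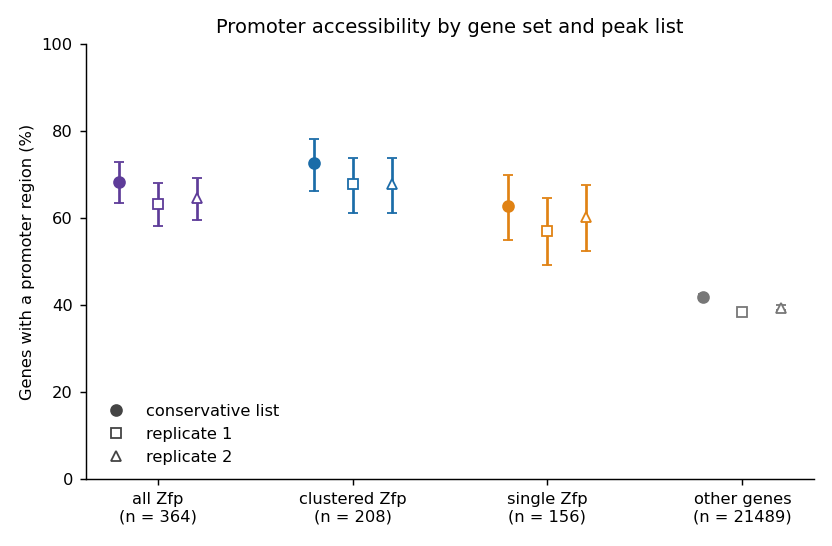
Share of genes with an accessible promoter (y axis, percent) for all, clustered and single Zfp genes and for other genes. Filled circles are the conservative list, open squares replicate 1 and open triangles replicate 2, and bars are 95% Wilson intervals. In each list clustered genes are highest and other genes lowest, at 72.6% and 41.9% in the conservative list.

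The clusters differed strongly among themselves. All promoters were accessible in 16 clusters, none in 8, and 27 were mixed, and the 23 clusters that are pairs split into 10 with both, 8 with 1 and 5 with no accessible promoter. Not all of the 16 held in the replicates' own lists. The pair Zfp935 and Zfp934 was called in neither, and the pair Zfp668 and Zfp646 in replicate 2 only. Within each of these pairs the strongest region is shared by both genes. Clusters of 5 or more genes had 97 of 119 promoters accessible (81.5%), against 54 of 89 (60.7%) in clusters of 2 to 4 genes. Replicate 1 gave 80.7% for the larger and 50.6% for the smaller clusters, and replicate 2 gave 79.8% and 51.7%. Genes in the smaller clusters thus stood below single genes, of which 62.8% were accessible in the conservative list, 57.1% in replicate 1 and 60.3% in replicate 2.

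Each of the 4 largest clusters was accessible at most of its genes. On chromosome 7, the cluster at chr7:29768552-30169750 (mm10) had 14 of 15 promoters accessible, and Zfp14 was the exception. It holds Zfp568, a KRAB protein known to repress a placental Igf2 transcript, and its signals ran between 5.83 and 24.0. Chromosome 17 carried a cluster of the same size at chr17:21383748-22225616, with 12 of 15 promoters accessible, where Zfp677, Zfp820 and Zfp995 had none. A cluster at chr13:67038596-67553830 had 13 of 14 promoters accessible, all but Zfp459. Its member Zfp708, which had an accessible promoter, is known to bind the retroelement RMER19B. The fourth, at chr7:24081924-24316666, had 8 of 10, all but Zfp112 and Zfp114. These counts were the same in both replicates' own lists except for the cluster of Zfp14, where replicate 2 called 13 of 15.

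The 8 clusters without any accessible promoter hold 2 or 3 genes each, and 6 of them lie on chromosomes 2 and 4. One of these is the chromosome 2 cluster of Zfp972, Zfp971 and Zfp931. Another is that of Zfp992, Zfp981 and Zfp993 on chromosome 4. Reads from a repeated sequence cannot be placed with certainty, so the share of 50-base words that occur once in the genome was computed over 500 bp either side of each gene's main TSS. The median of that share was 29.3% in the cluster of Zfp972 and 54.6% in that of Zfp992. It was below 95% in 5 of the 8 clusters with no accessible promoter and in 14 of all 51 clusters, 4 of which were fully accessible. Among these 4 is the pair Zfp935 and Zfp934, which neither replicate's own list held. The cluster of Zfp879, Zfp454 and Zfp2 on chromosome 11 had a median of 100% and no accessible promoter either. The part of read placement in these counts was not tested.

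**Figure D2:**
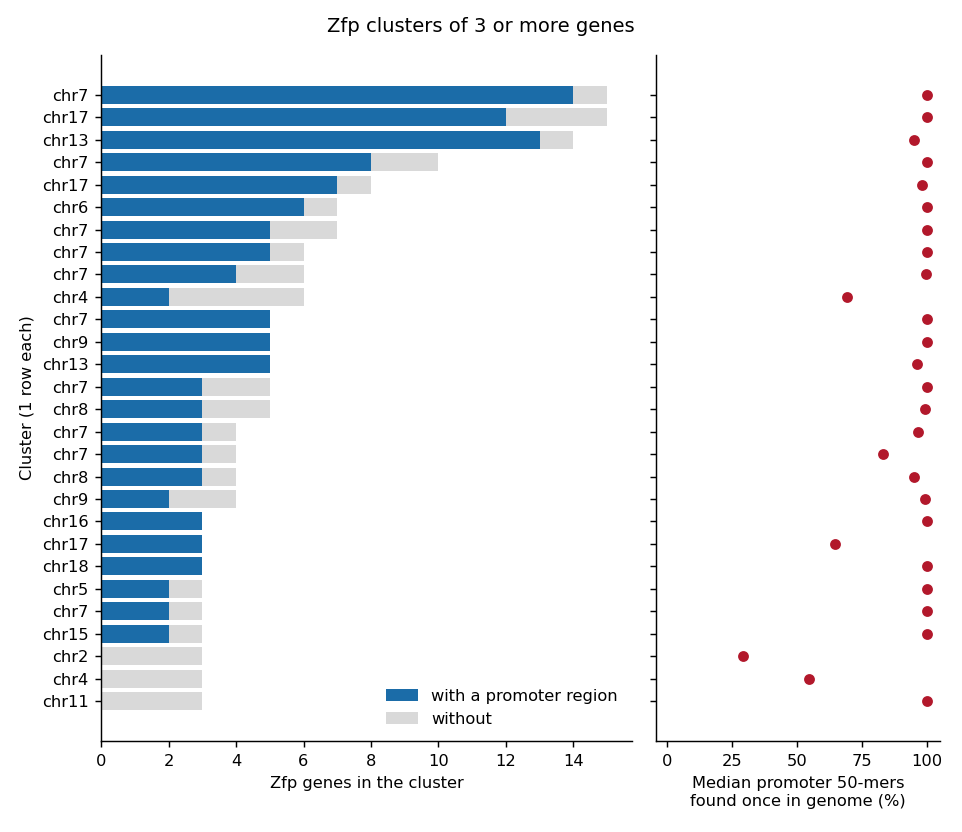
Zfp clusters of 3 or more genes, 1 row each, named by chromosome. The left panel counts genes with (blue) and without (grey) an accessible promoter, and the right panel gives the median percentage of promoter 50-base words found once in the genome. The largest cluster, on chromosome 7, has 14 of 15 promoters accessible, and the 3 clusters at the bottom have none, with medians of 29.3%, 54.6% and 100%.

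The same unevenness appeared by chromosome. Chromosome 7, home to 88 Zfp genes, had 69 with an accessible promoter (78.4%), against 35.3% of the other genes on that chromosome. On chromosome 13 the count was 28 of 31 (90.3%), on chromosome 17 it was 34 of 41 (82.9%) and on chromosome 5 it was 15 of 16 (93.8%). Chromosome 4 had only 8 of 30 (26.7%) and chromosome 2 only 7 of 25 (28.0%), below the 44.1% and 40.6% of the other genes there. Chromosome 11 had 6 of 17 (35.3%), against 47.3% of its other genes. The replicates' own lists gave 23.3% in each for chromosome 4, 24.0% and 28.0% for chromosome 2, and 35.3% in each for chromosome 11.

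Sequence repeats were common on chromosomes 2 and 4 but not there alone. Promoters under 95% unique numbered 18 of 30 on chromosome 4 and 15 of 25 on chromosome 2. They also numbered 14 of 31 on chromosome 13, where 28 of 31 promoters were accessible, and 1 of 17 on chromosome 11. Among genes at or above 95% unique, 7 of 12 on chromosome 4, 5 of 10 on chromosome 2 and 6 of 16 on chromosome 11 had an accessible promoter, against 203 of 277 over all chromosomes.

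**Figure D3:**
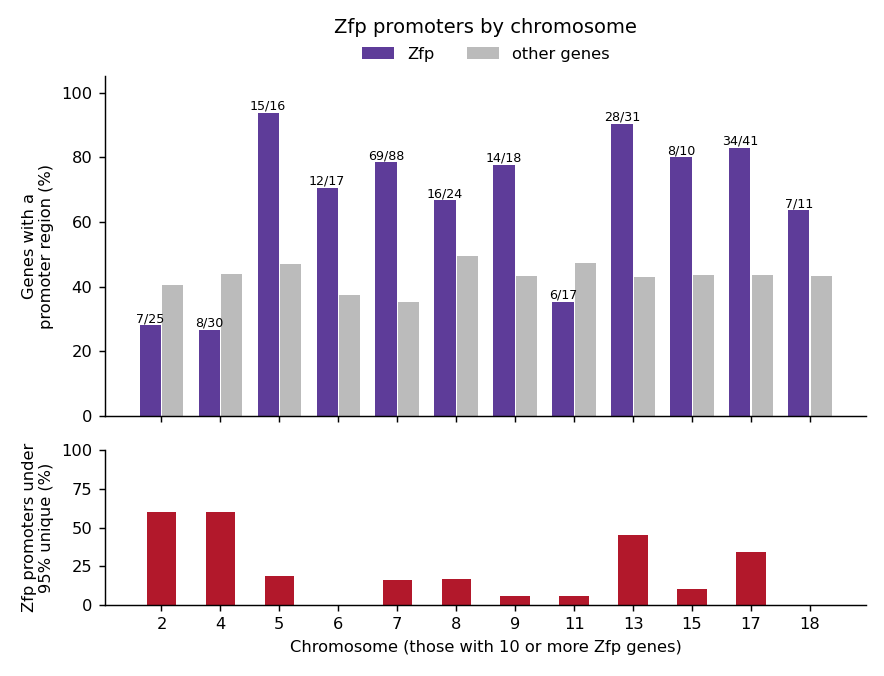
Upper panel, share of Zfp genes (purple, with counts) and of other genes (grey) with an accessible promoter, by chromosome, for chromosomes with 10 or more Zfp genes. Lower panel, share of Zfp promoters of which under 95% of 50-base words are found once in the genome. Chromosomes 2, 4 and 11 stand below their other genes, and chromosome 13 is high in the upper panel, at 28 of 31.

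Unique sequence also went with accessibility across the family. Where at least 95% of the words were unique, 73.3% of 277 Zfp genes had an accessible promoter, against 46.2% of 17914 other genes. Below that, 52.9% of 87 Zfp genes did, against 20.3% of 3575 other genes. The gap between Zfp and other genes was thus 27.1 points in unique sequence, close to that over all genes.

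The gap between Zfp and other genes was wider in CpG-poor than in CpG-rich promoters, though not in the poorest of them. The ratio of observed to expected CpG pairs, which is high in CpG islands, had a median of 0.619 over the same window in Zfp genes (0.546 in clustered and 0.674 in single genes), against 0.570 in other genes. Where the ratio was at least 0.6, 156 of 194 Zfp genes (80.4%, 74.3 to 85.4) had an accessible promoter, against 70.3% (69.4 to 71.2) of 10201 other genes. Below 0.6, 93 of 170 Zfp genes (54.7%, 47.2 to 62.0) did, against 16.2% (15.5 to 16.9) of 11288 other genes. Replicate 1 gave 51.8% of CpG-poor Zfp genes and 14.1% of CpG-poor other genes, and replicate 2 gave 50.6% and 14.6%. The gap between Zfp and other genes was 10.1 points in CpG-rich promoters and 38.5 points in CpG-poor ones. The CpG-poor sets differed in their mix of ratios. Below 0.2 lay 18 of the 170 Zfp genes, 2 of them accessible, but 4841 of the 11288 other genes, 218 of them accessible. From 0.2 to 0.4 the shares were 46.3% of Zfp and 13.7% of other genes, and from 0.4 to 0.6 they were 70.6% and 38.6%. Within each of these steps the gap was smaller than 38.5 points, which also holds the difference in mix.

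Among CpG-poor promoters, clustered genes were accessible more often than single ones. Of 118 CpG-poor clustered genes 74 were accessible (62.7%, 53.7 to 70.9), against 19 of 52 CpG-poor single genes (36.5%, 24.8 to 50.1). These intervals do not overlap, but they treat neighbours in a cluster as independent and mix unique with repeated promoters. Replicate 1 gave 59.3% of the clustered and 34.6% of the single genes, and replicate 2 gave 56.8% and 36.5%. These sets were not matched for unique sequence, and some inaccessible genes of both kinds had no 50-base word found once in the genome. At any CpG ratio, 38 of 63 clustered and 8 of 24 single genes under 95% unique were accessible. At or above 95% unique the shares were 77.9% of 145 clustered (70.5 to 83.9) and 68.2% of 132 single genes (59.8 to 75.5). The part of read placement here was not tested. In CpG-rich promoters the shares were 85.6% of 90 clustered genes (76.8 to 91.4) and 76.0% of 104 single genes (66.9 to 83.2), whose intervals overlap.

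In narrower steps of the ratio, clustered genes stayed above both single and other genes, though above single genes by little in some steps. Between 0.2 and 0.4, 27 of 48 clustered genes (56.2%, 42.3 to 69.3) and 4 of 19 single genes (21.1%, 8.51 to 43.3) had an accessible promoter, against 13.7% of other genes. Some inaccessible Zfp genes of this step, clustered and single, have no 50-base word found once in the genome, and the step was not split by unique sequence. Within that step the median ratio was 0.340 in clustered and 0.338 in single genes, but 0.280 in other genes. Between 0.4 and 0.6 the shares were 72.6% of clustered (60.4 to 82.1) and 65.2% of single genes (44.9 to 81.2), against 38.6% of other genes, at median ratios of 0.4999, 0.523 and 0.512. In that step replicate 1 gave 69.4% of clustered and 65.2% of single genes, and replicate 2 gave 66.1% and 65.2%. From 0.8 upward, 82.8% of Zfp genes (13 of 14 clustered and 35 of 44 single) and 75.6% of other genes were accessible. Below 0.2, 2 of 8 clustered and 0 of 10 single genes were.

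**Figure D4:**
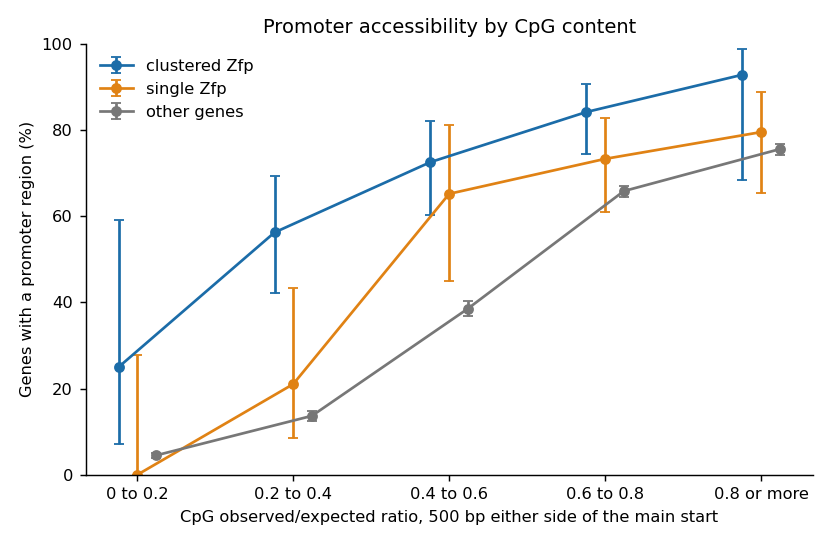
Share of genes with an accessible promoter (y axis, percent) by observed/expected CpG ratio within 500 bp of the main TSS (x axis, steps of 0.2), with 95% Wilson intervals. Clustered Zfp genes (blue) are above single Zfp genes (orange) in every step. Other genes (grey) are below the clustered genes in every step, by the most between 0.2 and 0.4, where the shares are 56.2% and 13.7%.

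The accessible Zfp promoters were also slightly stronger. The authors' signal per peak, of which no source used here gives the scaling, had a median of 14.9 (quartiles 11.9 and 18.2) at the 249 Zfp promoters, against 13.9 (10.8 and 17.1) at the 8995 other promoters. Clustered genes had a median of 15.2 and single genes one of 14.01. Replicate 1 gave medians of 13.9 for Zfp and 12.7 for other promoters, and replicate 2 gave 13.9 and 12.9, so the order held in both. Of the Zfp promoters 27.3% lay among the strongest 10% of all regions, against 19.7% of other promoters. The regions lay just before the start, with a median offset of the summit from the nearest TSS of -43 bp in Zfp genes and -47 bp in others. The summit was within 200 bp of a TSS in 88.4% of Zfp genes and 81.4% of others.

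Zfp promoters were less often shared with another gene. The region touched the 1 kb around another protein-coding gene's TSS in 31 Zfp genes (12.4%), against 24.8% of other accessible genes. For 8 Zfp genes the partner was another Zfp gene, among them the neighbours Zfp668 and Zfp646, and the 249 genes stood at 245 distinct regions.

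The 8 strongest promoters belonged to Zfp994, Zfp97, Zfp458, Zfp93, Zfp433, Zfp169, Zfp420 and Zfp449, with signals of 27.0, 26.2, 25.7, 25.1, 24.4, 24.0, 24.0 and 23.6. Of these genes 5 are clustered, 7 have a CpG ratio below 0.6 and 5 are under 95% unique. Zfp994 had a signal of 22.7 in replicate 1 and 24.5 in replicate 2. For Zfp97 the values were 21.9 in replicate 1 and 20.4 in replicate 2. Zfp458 had 21.7 in replicate 1 and 23.1 in replicate 2. All 8 were called in both replicates, at 19.8 to 22.7 in replicate 1 and 18.7 to 24.5 in replicate 2. None of the 50-base words around the starts of Zfp97 and Zfp433 occurs once only in the genome, so their signal cannot be told apart from that of their copies.

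At the low end stood Zfp260 (5.83), Zfp984 (5.73), Zfp605 (5.24) and Zfp592 (5.19). Zfp260 had 5.98 in replicate 1 and 5.31 in replicate 2. Zfp605 had 6.32 in replicate 1 and 4.21 in replicate 2, while Zfp984 and Zfp592 passed the IDR threshold in neither replicate alone. Across the 224 Zfp genes called in each replicate's own list, Spearman's rho between replicate 1 and replicate 2 signals was 0.909, and across 7989 other genes it was 0.892. These are descriptions across genes of the same 2 libraries.

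**Figure D5:**
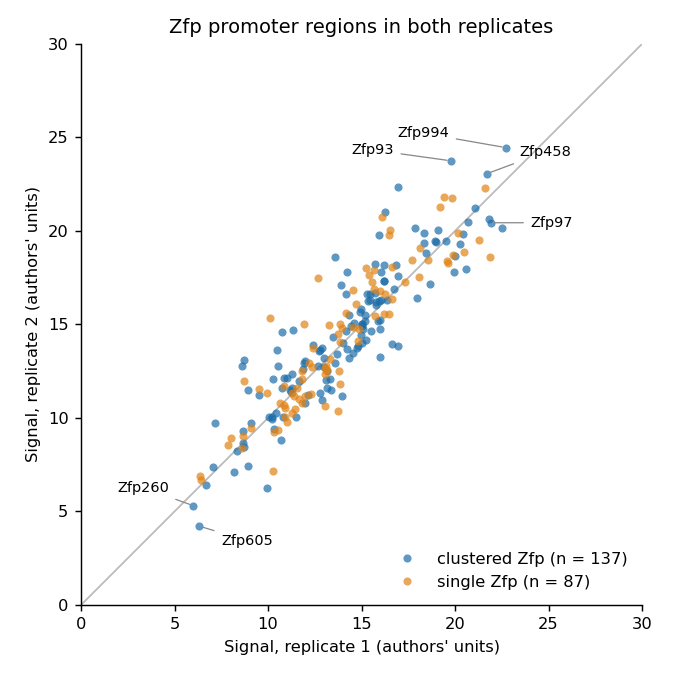
Signal of the strongest promoter region of each Zfp gene in replicate 1 (x axis) and replicate 2 (y axis), in the authors' units, for the genes called in both replicates' own IDR lists. Blue points are the 137 clustered and orange points the 87 single genes, and the grey line marks equal values. Zfp994 lies at the top, at 22.7 and 24.5, and Zfp605 at the bottom, at 6.32 and 4.21.

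Promoter sequences of 4 genes are given below, 2 of the strongest promoters and 2 inaccessible members of the largest clusters. Zfp433 is the single gene of highest signal and Zfp994 the clustered gene of highest signal. Zfp14 and Zfp677 are the genes without an accessible promoter chosen from the 2 clusters of 15 genes, and no list, the looser ones included, held a region at either. Each runs 5′ to 3′ on the gene's strand from 250 bases before to 50 bases after the RefSeq start (GRCm38.p6), at chr10:81704575-81704874 (+), chr17:22225565-22225864 (-), chr7:30051347-30051646 (-) and chr17:21383498-21383797 (+) for Zfp433, Zfp994, Zfp14 and Zfp677 in that order. Capitals mark matches, on either strand, to the motifs searched.
Zfp433: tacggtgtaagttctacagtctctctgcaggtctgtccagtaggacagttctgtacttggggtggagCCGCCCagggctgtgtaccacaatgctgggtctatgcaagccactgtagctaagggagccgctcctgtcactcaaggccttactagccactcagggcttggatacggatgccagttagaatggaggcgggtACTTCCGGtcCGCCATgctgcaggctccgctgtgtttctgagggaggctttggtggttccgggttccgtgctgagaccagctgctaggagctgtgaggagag
Zfp994: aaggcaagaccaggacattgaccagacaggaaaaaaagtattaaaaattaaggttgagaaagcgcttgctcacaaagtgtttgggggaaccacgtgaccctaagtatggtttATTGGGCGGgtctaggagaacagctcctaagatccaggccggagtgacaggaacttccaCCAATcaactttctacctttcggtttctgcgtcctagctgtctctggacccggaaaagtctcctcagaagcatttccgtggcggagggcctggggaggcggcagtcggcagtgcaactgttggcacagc
Zfp14: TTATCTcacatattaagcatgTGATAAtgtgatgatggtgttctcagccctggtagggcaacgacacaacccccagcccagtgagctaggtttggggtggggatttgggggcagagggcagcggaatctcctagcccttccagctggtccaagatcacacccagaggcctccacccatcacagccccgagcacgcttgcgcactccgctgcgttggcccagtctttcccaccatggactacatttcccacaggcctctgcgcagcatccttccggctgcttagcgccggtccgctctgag
Zfp677: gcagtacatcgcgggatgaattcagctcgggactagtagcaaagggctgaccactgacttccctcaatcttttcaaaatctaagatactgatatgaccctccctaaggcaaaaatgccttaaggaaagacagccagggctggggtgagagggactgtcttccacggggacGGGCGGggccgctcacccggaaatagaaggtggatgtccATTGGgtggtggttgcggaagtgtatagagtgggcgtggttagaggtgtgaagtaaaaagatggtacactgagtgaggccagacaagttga
Zfp433 has a GC box (GGGCGG) read on the other strand, an ETS motif (ACTTCCGG) and a YY1 core (ATGGCG). Zfp994 has an NF-Y box (CCAAT) on each strand, 1 of which overlaps a GC box. Zfp14 has 2 GATA motifs (AGATAA and TGATAA) and Zfp677 an NF-Y box and a GC box. All 4 are poor in CpG over these 300 bases, with ratios of 0.410 in Zfp433, 0.556 in Zfp994, 0.465 in Zfp14 and 0.528 in Zfp677, and the values of the accessible and the inaccessible pair interleave. No match, or its absence, shows whether a factor binds.

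Over all promoters of this length, Zfp genes differed from other genes in several motifs, searched on both strands around the main GENCODE start. The ETS motif, bound by factors such as GABPA, was in 37 Zfp promoters (10.2%), against 4.91% of other promoters. The NRF1 core (GCGCATGCG) was in 5.49%, against 2.45%. A core of the ZNF143 motif (ACTACAATT) was in 13 Zfp promoters (3.57%), against 0.489%, and 12 of the 13 genes are clustered. The NF-Y box was in 46.2%, against 38.5%, and the YY1 core in 14.8%, against 10.6%. The TATA box (TATAAA) was rarer in Zfp genes, at 5.77% against 12.6%. Among accessible promoters alone, which are a larger share of the Zfp genes, some of these differences narrowed or turned. There the TATA box was in 7.63% of Zfp and 6.49% of other promoters, the YY1 core in 16.9% and 17.5%, and the ZNF143 core in 3.61% and 0.878%. Related genes share sequence by descent, so these matches are not independent.

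The GC box separated accessible from inaccessible promoters less widely in Zfp genes than in others. It was in 46.2% of the accessible and 34.8% of the inaccessible Zfp promoters, against 67.1% of the accessible and 30.0% of the inaccessible promoters of other genes. The ETS motif was in 13.3% of the accessible and 3.48% of the inaccessible Zfp promoters, and in 10.3% and 1.01% of those of other genes. For the ZNF143 core the shares were 3.61% and 3.48%, which do not differ beyond the few genes behind them (9 and 4). GATA motifs, which GATA1 recognises, were in 13.3% of the accessible and 13.0% of the inaccessible Zfp promoters, and in 9.77% and 20.9% of those of other genes.

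Genes with and without a pattern of the KRAB A box were accessible at shares whose order was not stable. The pattern was found in 205 of the 364 genes, 73.6% of the clustered and 33.3% of the single genes. A gene without it may still carry a KRAB domain that the pattern missed. An accessible promoter was found in 139 of the 205 genes with the KRAB pattern (67.8%, 61.1 to 73.8), against 110 of the 159 without it (69.2%, 61.6 to 75.8). The difference of -1.38 points was of the other sign in the replicates' own lists, at 3.87 points in replicate 1 and 0.727 points in replicate 2. Among clustered genes the shares were 69.9% with and 80.0% without the pattern, and the intervals (62.3 to 76.6 and 67.6 to 88.4) overlap.

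Finger number showed no steady order. The median was 11 fingers, and the most was 36. Genes with 15 or more fingers had an accessible promoter in 79.2% (68.4 to 86.9), those with 10 to 14 in 61.9% (53.6 to 69.5), those with 5 to 9 in 73.7% (64.03 to 81.5) and those with 1 to 4 in 67.4% (53.0 to 79.1). The 12 genes in which no finger pattern was found included 5 with an accessible promoter.

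Most genes of the machinery through which KRAB proteins silence DNA had an accessible promoter, as did most other genes rich in CpG. Of 37 genes of that pathway 30 (81.1%) had an accessible promoter, and 28 in each replicate's own list, against 42.3% of all genes. Most of these promoters are rich in CpG. Of the 34 with a ratio of at least 0.6, 27 (79.4%) were accessible, against 70.3% of other genes with such a ratio. Trim28, the co-repressor that KRAB domains bind, had a signal of 9.53 and was called in both replicates. Setdb1, the H3K9 methyltransferase it recruits, had 15.6 and passed in replicate 2 only. The HP1 genes Cbx1, Cbx3 and Cbx5 had 12.2, 11.7 and 13.1, and Cbx1 passed in replicate 2 only. Mphosph8, a subunit of the HUSH complex that works beside TRIM28, had 21.6, and Dnmt1, the maintenance DNA methyltransferase, had 20.2. The 7 genes without an accessible promoter were Atf7ip2, Ehmt2, Dnmt3a, Dnmt3b, Chd3, Mta1 and Trim33. Of these Ehmt2, Dnmt3b, Mta1 and Trim33 had a region in the authors' looser list, which has no IDR threshold.

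Of 23 Zfp genes named for a known role, 15 had an accessible promoter, 14 of them in both replicates' own lists. This is 65.2%, close to the 68.4% of all Zfp genes. Among the silencers of repeats and imprinted genes, Zfp809, which recognises a retroviral primer binding site, had a signal of 11.9 (11.5 in replicate 1 and 10.04 in replicate 2). Zfp568 had 12.1 (10.3 in replicate 1 and 12.1 in replicate 2). Zfp57, which keeps DNA methylation at imprinted genes in embryos, had no region in any list, the looser ones included.

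Further genes of the 23 with an accessible promoter have a range of roles. Zfp143, an activator of small nuclear RNA and many other promoters, had 17.6 (16.3 in replicate 1 and 16.6 in replicate 2). Zfp384, a transcription factor whose human counterpart is fused to other genes in leukaemia, had 20.2 (18.6 and 18.4, here and below for replicate 1 and then replicate 2). Zfp598, a ubiquitin ligase that senses collided ribosomes, had 18.2, with a wider spread of 12.6 in replicate 1 and 17.5 in replicate 2. Zfp451, a SUMO ligase, had 12.4 (11.4 and 11.2), and Zfp207, which helps spindle assembly, had 11.5 (10.9 and 10.1). Zfp281, a regulator of stem cell genes, had 14.1 (13.3 and 13.2). Zfp148, a factor of GC-rich promoters, had 13.1, passed in replicate 1 only (10.7) and had its region at another annotated start than its main one. Zfp644, a partner of the H3K9 methyltransferases EHMT1 and EHMT2, had 12.1 (11.3 and 11.3). Zfp91, a ubiquitin ligase, had 9.65 at a region that also lies at the start of Lpxn. Lower still were Zfp335 at 8.76 and Zfp703 at 6.68. Zfp574 had 13.6 and Zfp507 had 11.8, both in both replicates.

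The remaining genes of the 23 were inaccessible. Zfp42 (Rex1), a marker of pluripotent cells, Zfp423, known in fat cells and cerebellum, Zfp536, a neuronal repressor, Zfp750, a regulator of epidermal differentiation, and Zfp462, a regulator of pluripotency, had no promoter region in any list. Zfp106, which is needed in motor neurons and muscle, and Zfp217, whose human counterpart is amplified in breast cancer, had none in the conservative list but did have regions in the looser lists, at signals of 6.44 and 4.22 in that of both replicates.

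Distal regions were not more numerous near Zfp genes. A region was called distal where its summit lay over 1 kb from every protein-coding TSS. Within 50 kb of the gene body, Zfp genes had a mean of 1.02 distal regions in the conservative list, against 1.19 for other genes. In the replicates' own lists the means were 0.544 and 0.643 for Zfp genes (0.593 ± 0.0699, n = 2), against 0.642 and 0.774 for other genes (0.708 ± 0.0935). The difference was -0.0979 in replicate 1 and -0.131 in replicate 2. No distal region was found near 57.1% of Zfp genes and near 49.3% of other genes.

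Zfp217 had the most, with 10, although its own promoter was not in the list, and Zfp236 followed with 8. Zfp52, Zfp541, Zfp580, Zfp652, Zfp654, Zfp750, Zfp784 and Zfp865 had 6 each. Of these, Zfp580, Zfp784 and Zfp865 are neighbours in the same cluster on chromosome 7, so their windows overlap and can count the same regions. Inside the bodies of 41 Zfp genes lay 63 distal regions by this rule, 57 in introns and 6 in exons, and 4 of them reach with an edge into the 1 kb around a TSS of their gene and so also count as its promoter region. This is 5.73 per Mb of gene, against 5.94 in other genes. The strongest was in an intron of Zfp185 (chrX:73007926-73008503, signal 19.1), followed by an intron of Zfp13 (18.4) and an intron of Zfp652 (17.9), and all 3 were called in both replicates.

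The calls at Zfp promoters were as reproducible as elsewhere. Of the 249 accessible Zfp genes 223 (89.6%) were also called in the lists of both replicates, 5 in replicate 1 only, 10 in replicate 2 only and 11 in neither, against 88.7% of other accessible genes called in both. Of the 11, the highest signals were those of Zfp316 (9.02), Zfp935 and Zfp934 (8.93, at a region they share), Zfp251 (8.86), Zfp658 (8.26), Zfp710 (8.03), Zfp11 (7.51) and Zfp105 (7.04). In the other direction, 3 genes outside the conservative list were in a replicate's own. Zfp808 was in both, at 10.3 in replicate 1 and 7.18 in replicate 2. Zfp786 was in replicate 1 only, at 10.99, and Zfp523 in replicate 2 only, at 7.99. Of the 115 Zfp genes without an accessible promoter 22 (19.1%) had a region in the looser list, against 7.93% of the other genes without one, and 91 Zfp genes had none in any of the lists read.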

How the data were processed

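ATAC-seq peak lists of the 2 libraries were read; the labels give mm10 as the assembly. The deposited file lists say that the authors called peaks in each library and in both, used an exclusion list, and thresholded some lists by IDR. No source used here gives the aligner, peak caller, read filters or transposase shift. The signal is the authors' deposited value per peak, used only within a list. In all 7 lists were read. The members and gene lists were chosen with earlier results of these data known.

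Overlapping peaks were merged, the strongest summit standing for the region. TSS of protein-coding transcripts came from GENCODE M21, whose chromosome lengths hold every peak; the main TSS was that of the best APPRIS principal transcript. Zinc fingers (C, 2 to 4 residues, C, 12 residues, H, 3 to 5 residues, H) and the KRAB A box (7 positions, up to 2 mismatches) were found in translated GENCODE coding sequences in place of the planned RefSeq proteins. Uniqueness counted 50-base words over 65 sequences of the assembly, unplaced scaffolds included. Of the Zfp genes 299 were in the RefSeq promoter table, from which the printed sequences came.

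Genes named are the 8 strongest and 4 weakest promoters, the 4 largest clusters, the 6 genes with most distal regions, genes of known role, and genes called in neither or only in a replicate's list. Zfp654, Zfp750, Zfp784 and Zfp865, tied with those at 6 distal regions, Zfp185, Zfp13, Zfp668, Zfp646 and Zfp708 and the clusters and chromosomes with few accessible promoters were chosen after their values were seen. Errors are Wilson intervals at 95% and the SD of both replicates; no p-value was computed, since genes are not replicates. The cluster size of 5 and the CpG steps were set in the analysis. Alternatives were other lists, windows of 500 and 2000 bp, start sites, cluster rules and promoter strata. The gene rules were tested on simulated data. Python 3.11.15, numpy 2.4.6, scipy 1.17.1, numba 0.67.0 and matplotlib 3.10.9 were used.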

Additional observations from a re-analysis of the deposited data

How the results depend on the processing

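The difference between Zfp and other genes (26.5 points) was above 0 in all 19 alternatives. It was 27.3 with the optimal list, 28.0 with the looser replicated list, 28.3 and 28.3 with the replicates' looser lists, 24.9 with regions at or above the median signal, 26.9 and 25.3 with windows of 500 and 2000 bp, 24.9 with 1 start site per gene, 27.1 with unique promoters and 21.8 with 1 value per cluster. It moved most with CpG content, to 10.1 in CpG-rich and 38.5 in CpG-poor promoters, 8.91 in CpG-rich and unique ones, and 8.49 and 39.3 where the ratio was taken over 300 bases. Leaving out a replicate gave 24.8 to 25.1. The difference between clustered and single genes (9.78 points) was above 0 in all 23 alternatives and moved by more than the replicates' SD in 6, to 7.37 with the looser list of replicate 1, 26.2 and 17.6 in CpG-poor promoters (ratio over the full window and over 300 bases), 4.72 with clusters within 200 kb, 5.11 where the neighbour could be any gene with 3 or more fingers, and 3.24 with 1 value per cluster. The ratio of median signals, Zfp over other genes (1.07), was 1.09 with the looser list and 1.08 to 1.09 with a replicate left out. The difference in distal regions (-0.167) was -0.195 with the optimal list, -0.505 with the looser list, -0.231 within 100 kb and -0.131 to -0.0979 with a replicate left out. The KRAB difference (-1.38 points) changed sign with either replicate left out, to 0.727 and 3.87. The KRAB pathway share (81.1%) was 91.9% with the looser list and 75.7% with either replicate left out. The looser lists of single replicates and the strata by both properties or over 300 bases were added after seeing the data. The causes of these shifts were not tested.

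No paired analysis was possible because both libraries form 1 group. With 2 libraries the SD is itself poorly known, the read depth is unknown, and a promoter absent from a list was not detectable at this depth and threshold rather than closed.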

Other observations

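Other C2H2 zinc finger genes as a group were accessible less often than the Zfp genes. Of 313 genes outside the Zfp symbols whose protein holds 3 or more finger patterns, 158 (50.5%, 95% Wilson interval 45.0 to 56.0) had an accessible promoter, with 45.7% in replicate 1 and 48.2% in replicate 2, against 68.4% of Zfp genes. Genes of the Zbtb family, whose proteins pair fingers with a BTB domain, had 20 of 29 (69.0%, 50.8 to 82.7). Those of the Zscan family, with a SCAN domain, had 8 of 15, and those of the Zkscan family, with SCAN and often KRAB, 6 of 11. The Klf and Sp genes, factors of GC-rich promoters, had 12 of 26. Finger genes that still carry a provisional Gm or Rik symbol had 31 of 74 (41.9%, 31.3 to 53.3), although 64 of the 74 hold the KRAB pattern. Their promoters had a median of 64.2% of 50-base words found once in the genome, and 62 of the 74 had a CpG ratio below 0.6. The part of sequence repeats in that share was not tested.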
